A study of Mus musculus with 12 samples.

Results

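Notch receptors, ligands, targets and modulators, 10 genes in all, were followed through peak lists of H3K4me3, H3K4me1 and MLL4 in mouse embryonic fibroblasts, the connective tissue cells grown from embryos. The genes were 4 receptors (Notch1, Notch2, Notch3 and Notch4), 2 ligands (Jag1 and Dll4), 2 target genes (Hes1 and Hey1) and 2 modulators (Lfng and Dtx1). These 10 of the 21631 protein-coding genes on chromosomes 1 to 19 and X were named by their place in the pathway. They were not ranked by a measured value, but the list was made with earlier results of these data known. Peaks of each mark were collected over each gene plus 1 kb beyond both ends, and H3K4me1 peaks also over the gene plus 50 kb. The cells were either labelled fbxw7 KO (KO) or WT, and the labels give the same culture medium for both. Each genotype had 2 libraries for each of 3 antibodies, 12 libraries in all, made by Cut & Run, in which a nuclease tethered to an antibody cuts out the chromatin that the antibody binds, for sequencing. The labels name neither the part of Fbxw7 that was deleted nor the number of lines or embryos, and they leave unsaid whether replicate libraries were made from separate cultures. The p-values therefore concern these libraries alone, whose differences may be technical.

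Notch receptors are cell-surface proteins that bind Jagged and Delta-like ligands on neighbouring cells. Ligand binding leads to cleavage by an ADAM protease and by gamma-secretase, and the freed intracellular domain enters the nucleus, where it joins the DNA-binding protein RBPJ and Mastermind coactivators at target genes such as those of the Hes and Hey families. Fbxw7 recognises substrates for an SCF-type ubiquitin ligase, and the Notch intracellular domain is among the proteins it marks for degradation. H3K4me3 is found mainly at promoters of active genes, H3K4me1 at enhancers and around promoters, and MLL4, the product of Kmt2d, is a methyltransferase that places H3K4me1 at enhancers.

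H3K4me3 lists held 10397 and 11281 peaks in the KO libraries and 17460 and 16078 in the WT libraries, from 5519477 and 5938102 filtered fragments in KO and 11319701 and 6185767 in WT. The median H3K4me3 peak was 540 and 579 bp long in KO and 1218 and 1054 bp in WT. H3K4me1 lists were closer, with 59908 and 53120 peaks in KO and 62065 and 56616 in WT, and MLL4 lists held 49 and 40 peaks in KO and 60 and 69 in WT. H3K4me3 peaks lay over 16 of 16 fibroblast marker genes in at least 1 library, against 3 of 10 endothelial, 1 of 6 haematopoietic, 1 of 6 epithelial and 3 of 6 neural markers. Over Fbxw7 itself there were 1 and 1 H3K4me3 peaks in KO and 2 and 3 in WT, which does not check the genotype because the deleted part is not given.

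All 10 Notch genes had less sequence under H3K4me3 peaks in each KO library than in each WT library, and 4 of them, Dll4, Hes1, Lfng and Dtx1, had no H3K4me3 peak in KO. The receptors Notch1, Notch2 and Notch4 and the ligand Jag1 had a peak in all 4 libraries, shorter in KO, against a background of 68.1% of the 13276 genes with any H3K4me3 peak. Summed over the 10 genes, H3K4me3 peaks covered 3348 and 3223 bp in KO and 17030 and 12280 bp in WT, a mean of 3285.5 ± 88.4 bp in KO and 14655 ± 3359 bp in WT (SD, n = 2 each), or a log2 ratio of KO over WT of −2.14. The same sum over all protein-coding genes gave a log2 ratio of −1.47. Lower coverage in both KO libraries was the common state of the genome: it was seen at 93.5% of these 13276 genes, and higher coverage in both KO libraries at 0.0301%, so the count of 10 of 10 does not set the Notch genes apart. Having a peak in both WT libraries and in neither KO library was seen at 12.6% of them and at 4 of the 10 Notch genes, a difference that was not tested. With 2 libraries against 2, the smallest p an exact two-sided permutation test can give is 0.333, which each of the 10 genes reached and which cannot pass 0.05. Bulk peak lists cannot tell fewer cells carrying the mark from less of the mark per cell.

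**Figure D1:**
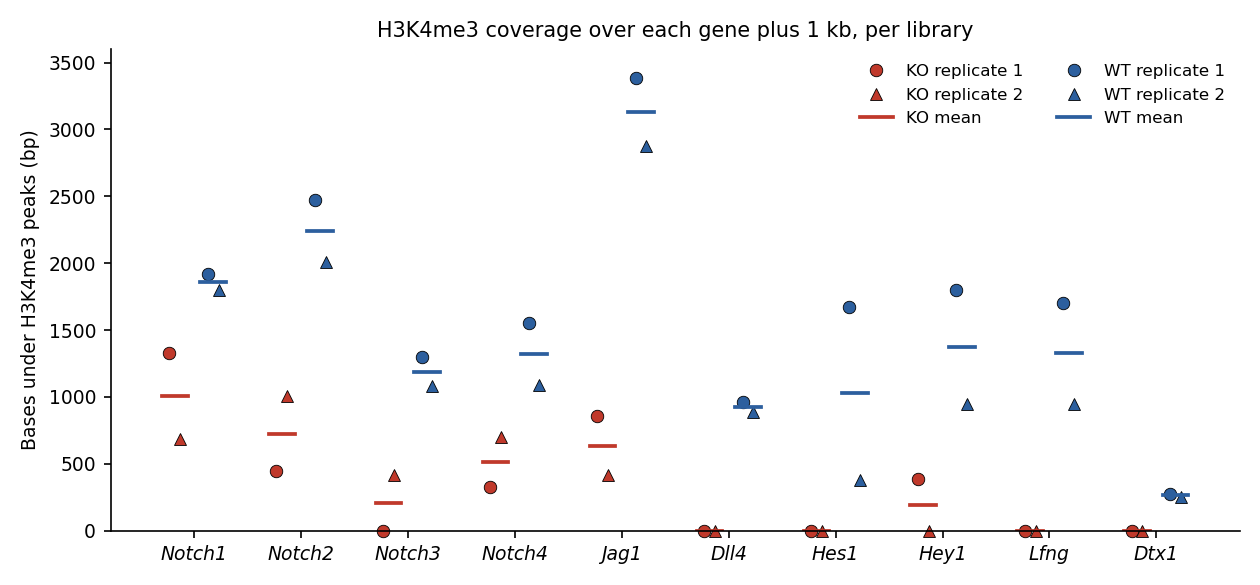
Bases under H3K4me3 peaks over each gene plus 1 kb (bp, vertical axis) for the 10 Notch pathway genes (horizontal axis), with a point for each library and a line for the mean of 2 KO (red) or 2 WT (blue) libraries. Both red points lie below both blue points at every gene, and at Dll4, Hes1, Lfng and Dtx1 both red points are at 0.

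Where the RefSeq table of promoters lists a gene, the distances below run from its start site, positive into the gene. It lists 8 of the 10 genes, all but Hes1 and Hey1, and for 4 of these the 250 bases before the start are printed here, for a receptor with peaks in all libraries near its start (Notch1), a receptor with none there (Notch4), and the ligand and the modulator with peaks there in WT alone (Dll4 and Lfng). The bases come from RefSeq (GRCm38.p6, with mm10 coordinates), are read 5′ to 3′ on the gene's strand and end at the base before the start. They are chr2:26503823-26504072 on the minus strand for Notch1, chr17:34564045-34564294 on the plus strand for Notch4, chr2:119325534-119325783 on the plus strand for Dll4 and chr5:140607091-140607340 on the plus strand for Lfng. Capitals mark the core bases TGGGAA of the RBPJ motif on either strand.
Notch1: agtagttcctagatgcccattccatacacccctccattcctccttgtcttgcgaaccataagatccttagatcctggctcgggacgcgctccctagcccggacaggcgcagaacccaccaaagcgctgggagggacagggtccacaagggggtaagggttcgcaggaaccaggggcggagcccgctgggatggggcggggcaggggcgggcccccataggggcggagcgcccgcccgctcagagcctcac
Notch4: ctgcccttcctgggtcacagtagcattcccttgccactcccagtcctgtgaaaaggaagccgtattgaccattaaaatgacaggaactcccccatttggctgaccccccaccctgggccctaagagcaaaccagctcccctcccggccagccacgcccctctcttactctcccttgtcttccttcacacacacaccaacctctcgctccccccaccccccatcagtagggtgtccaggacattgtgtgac
Dll4: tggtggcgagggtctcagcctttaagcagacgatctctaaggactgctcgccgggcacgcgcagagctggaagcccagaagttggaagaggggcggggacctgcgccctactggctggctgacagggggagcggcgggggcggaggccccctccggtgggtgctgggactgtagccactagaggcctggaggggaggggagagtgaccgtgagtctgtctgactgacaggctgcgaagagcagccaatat
Lfng: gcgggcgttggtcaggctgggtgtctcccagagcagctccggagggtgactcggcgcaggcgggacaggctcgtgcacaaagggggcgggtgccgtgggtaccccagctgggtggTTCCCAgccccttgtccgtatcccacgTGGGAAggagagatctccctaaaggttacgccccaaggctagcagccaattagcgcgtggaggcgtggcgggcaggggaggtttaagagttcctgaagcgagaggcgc
The core TGGGAA, searched on both strands, was present in 1 of the 8 promoters, that of Lfng, with a match at −135 on the minus strand and another at −108 on the plus strand, counted in bases from the start to the leftmost base of the match. It was present in 21.6% of the 32851 promoters of the table over the same length. The GC box GGGCGG, on either strand and not overlapping that core, was present in 6 of the 8, all but Notch4 and Jag1, against 32.7% of all promoters, and TATAAA in 0 of 8 against 12.4%. The G and C content was 66% at Notch1, 58.4% at Notch4, 65.6% at Dll4 and 66% at Lfng, with a median of 52.4% over all promoters. The ratio of observed to expected CpG was 0.588 at Notch1, 0.226 at Notch4, 0.557 at Dll4 and 0.689 at Lfng, with a median of 0.373. H3K4me3 peaks reached 0 and 0 of the 250 Notch1 bases in KO and 237 and 182 in WT, 0 and 0 of the Dll4 bases in KO and 250 and 0 in WT, 0 and 0 of the Lfng bases in KO and 242 and 0 in WT, and none of the Notch4 bases in any library. At these 4 genes the peaks therefore lay mostly downstream of the start, and no KO peak reached the sequence printed. Of the promoters not printed, that of Jag1 had 250 and 0 of its 250 bases under H3K4me3 peaks in KO and 250 and 250 in WT. At Notch3 it was 0 and 0 in KO and 206 and 31 in WT, and at Notch2 and Dtx1 none in any library.

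Within 1 kb of the start site, H3K4me3 was present in all 4 libraries at Notch1 and Notch2, in 3 at Notch3 and Jag1, in the WT libraries alone at Dll4 and Lfng, and in none at Notch4 and Dtx1. Among 7930 genes with a single listed start and a peak there, 66.4% had it in all 4 libraries and 13.6% in both WT libraries and neither KO library.

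Notch1, the receptor most studied in T cell development and leukaemia, spans chr2:26457902-26503822 on the minus strand, and its start faces the long noncoding RNA gene Gm35978. Its H3K4me3 peak covered 1327 and 688 bp in the KO libraries and 1917 and 1799 bp in the WT libraries. The groups did not overlap, and the means were 1007.5 ± 452 bp in KO and 1858 ± 83.4 bp in WT (SD, n = 2 each), a ratio of 0.542, the highest of the 10 genes. The KO peaks ran from 0.001 to 1.327 kb and from 0.224 to 0.911 kb, and the WT peaks from −0.237 to 1.679 kb and from −0.182 to 1.616 kb. Both KO peaks thus sat inside the WT interval and stopped short of the promoter side of it. The authors' −log10 q of the peak was 7.66 and 7.01 in KO and 52.2 and 34.0 in WT, while their fold enrichment over the local background was closer, at 5.68 and 5.19 in KO and 6.88 and 7.50 in WT; q also depends on depth.

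Notch2, a receptor widely expressed in mesenchymal cells, spans chr3:98013538-98150367 on the plus strand and is the longest of the 10 genes. Its H3K4me3 peaks covered 446 and 1007 bp in KO and 2471 and 2010 bp in WT, averaging 726.5 ± 397 bp in KO and 2240.5 ± 326 bp in WT (SD, n = 2 each), with a ratio of 0.324. The KO peaks began 0.639 and 0.612 kb after the start and the WT peaks 0.06 and 0.084 kb after it, so that the KO libraries lacked the part nearest the start. Both WT libraries also had a short peak about 50 kb inside the gene, from 49.739 to 50.401 kb and from 49.634 to 49.993 kb, with an authors' −log10 q of 3.96 and 3.30. No KO library had a peak at that internal site.

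Notch3, the receptor of vascular smooth muscle cells and pericytes, spans chr17:32120820-32166896 on the minus strand. H3K4me3 covered 0 and 417 bp in KO and 1295 and 1082 bp in WT. The KO peak was called in replicate 2 alone, from 0.058 to 0.474 kb with a −log10 q of 4.68, inside WT peaks that ran from −0.206 to 1.088 kb and from −0.031 to 1.05 kb. KO replicate 1, the H3K4me3 library with the fewest fragments, had no peak over the gene.

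Notch4, a receptor found mainly in endothelial cells, spans chr17:34564286-34588543 on the plus strand and had no H3K4me3 peak within 1 kb of its start in any library. Its peak covered 330 and 698 bp in KO and 1552 and 1091 bp in WT, and lay near the other end of the gene, from 22.917 and 22.518 kb in KO and from 22.426 and 22.445 kb in WT. The peaks ended 1002 and 1033 bp before the 3′ end in KO and 271 and 713 bp before it in WT, and 2265 and 2296 bp (KO) and 1534 and 1976 bp (WT) before the start of the next gene, Gpsm3. With a −log10 q of 12.5 and 9.0 in KO and 68.2 and 37.9 in WT, it was the best-scoring H3K4me3 peak of the 10 genes in every library. The H3K4me3 counted at Notch4 is therefore a signal inside the gene body near its 3′ end and not at its annotated start.

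Jag1, the ligand of the Jagged family, spans chr2:137081451-137116520 on the minus strand and carried the widest WT peaks of the 10 genes. H3K4me3 covered 857 and 413 bp in KO and 3385 and 2880 bp in WT. The groups did not overlap, with means of 635 ± 314 bp in KO and 3132.5 ± 357 bp in WT (SD, n = 2 each) and a ratio of 0.203. In WT a single peak ran across the start, from −0.891 to 2.493 kb and from −0.77 to 2.109 kb. In KO replicate 1 there were 2 short peaks inside that interval, from −0.414 to 0.136 kb and from 1.185 to 1.49 kb, and in KO replicate 2 the second alone, from 1.177 to 1.589 kb. The start itself was covered in KO replicate 1 and in both WT libraries.

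Dll4, the Delta-like ligand of endothelial and thymic epithelial cells, spans chr2:119325784-119335666 on the plus strand, and the long noncoding RNA gene Gm14207 overlaps its start. H3K4me3 covered 0 and 0 bp in KO and 964 and 887 bp in WT. WT replicate 1 had a peak on each side of a gap, from −0.324 to 0.015 kb and from 0.312 to 0.935 kb, and WT replicate 2 a peak from 0.282 to 1.168 kb. These were weak peaks in their own lists, with a best −log10 q of 8.57 and 4.35 that stood at the 14.1 and 4.55 percentiles of the WT lists. Of 10 endothelial markers, 3 had H3K4me3 in any library: Flt1 in all 4, Kdr in KO replicate 1 and both WT libraries, and Esam in WT alone. Their summed coverage was 1204 and 819 bp in KO and 4416 and 3823 bp in WT, while Pecam1, Cdh5, Tek, Tie1, Emcn, Erg and Sox17 had 0 in every library. H3K4me1 peaks lay over 8 of the 10 markers in at least 1 library. The part of endothelial cells in the Dll4 and Notch4 values was not tested.

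**Figure D2:**
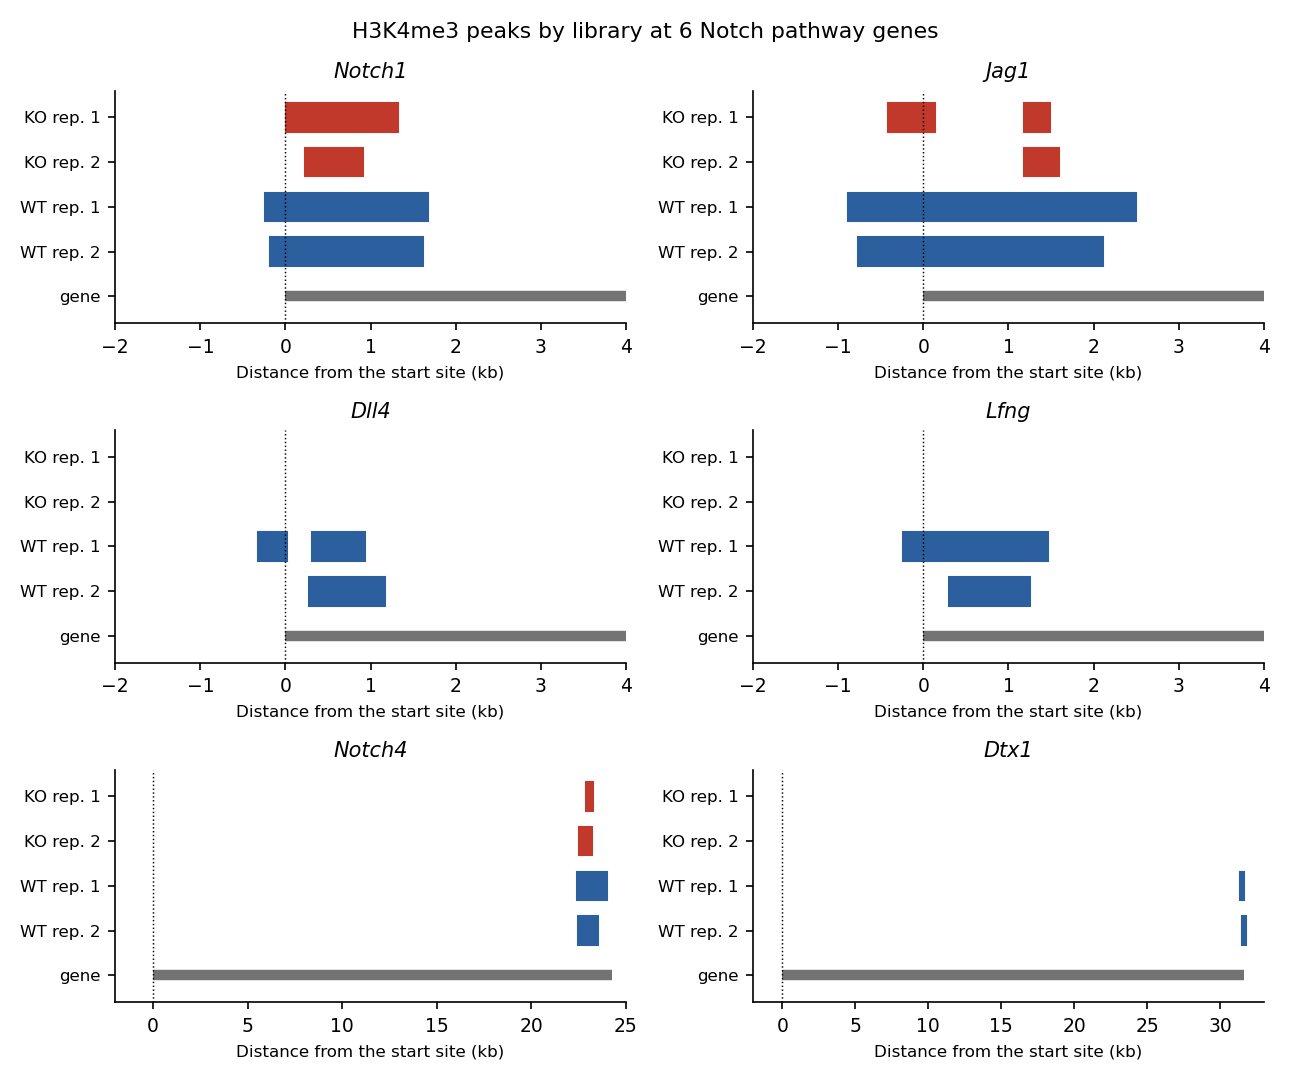
Position of every H3K4me3 peak near 6 of the genes, in kb from the start site (horizontal axis, positive into the gene, dotted line at 0), with KO libraries (red) above WT libraries (blue) and the gene in grey. At Notch1 and Jag1 the KO peaks lie inside the WT peaks, at Dll4 and Lfng the KO libraries have none, and at Notch4 and Dtx1 the peaks lie near the 3′ end of the gene.

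Hes1, the basic helix-loop-helix repressor that is the best-known Notch target, spans chr16:30065357-30067796. Its coverage was 0 and 0 bp in KO and 1672 and 381 bp in WT, so the WT libraries differed widely, with a mean of 1026.5 ± 913 bp (SD, n = 2). Measured from the lower-coordinate end of the gene, WT replicate 1 had 3 peaks, from −0.625 to −0.283, from 0.25 to 1.031 and from 2.591 to 3.137 kb. WT replicate 2 had a single peak, from 0.657 to 1.037 kb, which overlapped the middle one of these. Their fold enrichment over the local background was low, 3.09 for the best peak of WT replicate 1 and 2.54 in WT replicate 2, and the −log10 q was 12.2 and 3.33.

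Hey1, a related repressor and Notch target, spans chr3:8663359-8667038. It carried 388 and 0 bp in KO and 1796 and 945 bp in WT, with means of 194 ± 274 bp in KO and 1370.5 ± 602 bp in WT (SD, n = 2 each). The KO peak lay from 4.168 to 4.555 kb beyond the lower-coordinate end, inside the main WT peaks from 3.224 to 4.886 kb and from 4.03 to 4.828 kb. These lie at and beyond the higher-coordinate end, which the gene LOC115489673 overlaps, so the peak cannot be given to either gene alone. Each WT library had a further short peak inside Hey1, from 1.615 to 1.954 kb and from 2.898 to 3.192 kb, which did not overlap each other.

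Lfng, a glycosyltransferase that modifies Notch receptors and their response to ligands, spans chr5:140607341-140615545 on the plus strand. H3K4me3 covered 0 and 0 bp in KO and 1706 and 950 bp in WT, from −0.242 to 1.463 kb and from 0.306 to 1.255 kb. The Lfng peak had a −log10 q of 25.2 and 11.1 and a fold enrichment of 6.55 and 5.75 in the WT libraries. By both values it ranked first in WT among the 4 genes with no KO peak. By pileup Hes1 stood higher, with a best peak of 63 and 27 in WT replicates 1 and 2 against 53 and 25 at Lfng. Dtx1, a ubiquitin ligase that binds the Notch intracellular domain, spans chr5:120680203-120711867 on the minus strand and had the least H3K4me3 of the 10 genes, with 0 and 0 bp in KO and 272 and 255 bp in WT. Its WT peaks lay at the other end of the gene, across the 3′ end in WT replicate 1 (from 31.381 to 31.652 kb) and just beyond it in WT replicate 2 (from 31.505 to 31.759 kb), with a −log10 q of 5.92 and 2.43, and none was within 1 kb of the start.

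The KO to WT ratio of covered bases had a median of 0.158 over the 10 genes, against 0.370 over all 12644 genes with H3K4me3 in both WT libraries, a difference that was not tested, and Notch1 and Notch4 lay above the median of all genes. The ratio was 0 at 4 of the 10, against 13.2% of all such genes, and 4 of the 10 had a peak in both KO libraries, against 71.5%. Between these and Notch1 lay Hey1 at 0.142, Notch3 at 0.175, Jag1 at 0.203, Notch2 at 0.324 and Notch4 at 0.389. When each gene was expressed as a share of its own library's H3K4me3 coverage over all genes, 6 of the 10 (Notch3, Jag1, Dll4, Hes1, Lfng and Dtx1) were lower in both KO libraries, against a background of 29.6%, and 0 were higher in both, against 32.7%. Dll4, Hes1, Lfng and Dtx1 had no KO peak, so their lower share was fixed in advance. The same holds for the 12.6% of all genes with H3K4me3 in WT alone. The 10 genes together took 0.0481% and 0.0399% of the H3K4me3 coverage over all genes in KO and 0.0741% and 0.0651% in WT. When each list was cut to its best 10397 peaks by q, the length of the shortest, no gene of the 10 had a peak in both WT libraries and neither KO library, against 3.46% of all genes with a peak left. Dll4, Hes1, Lfng and Dtx1 then had no peak in any library, Hey1 had its peak in KO replicate 1 alone, and 5 of the 6 genes that still had a peak (the 4 receptors and Jag1) had less coverage in both KO libraries, a share near the background of 83.9%. The WT peaks of Dll4, Hes1, Lfng and Dtx1 thus ranked below the best 10397 of their lists. With all peaks under a −log10 q of 5 left out, 3 of the 10 genes (Notch3, Hey1 and Lfng) had H3K4me3 in WT alone, against a background of 21.3%, and 7 of the 10 had less coverage in both KO libraries, against 93.0%. At a −log10 q of at least 10, H3K4me3 was left in WT alone at Notch1, Notch2, Notch3, Jag1 and Lfng, 5 of the 8 genes that still had a peak, a share near the background of 63.1%, and coverage was lower in both KO libraries at 6 of the 8, against 89.6%. Lfng alone was peaked only in WT in the lists as deposited and under both q cutoffs, though not in the lists of equal length.

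**Figure D3:**
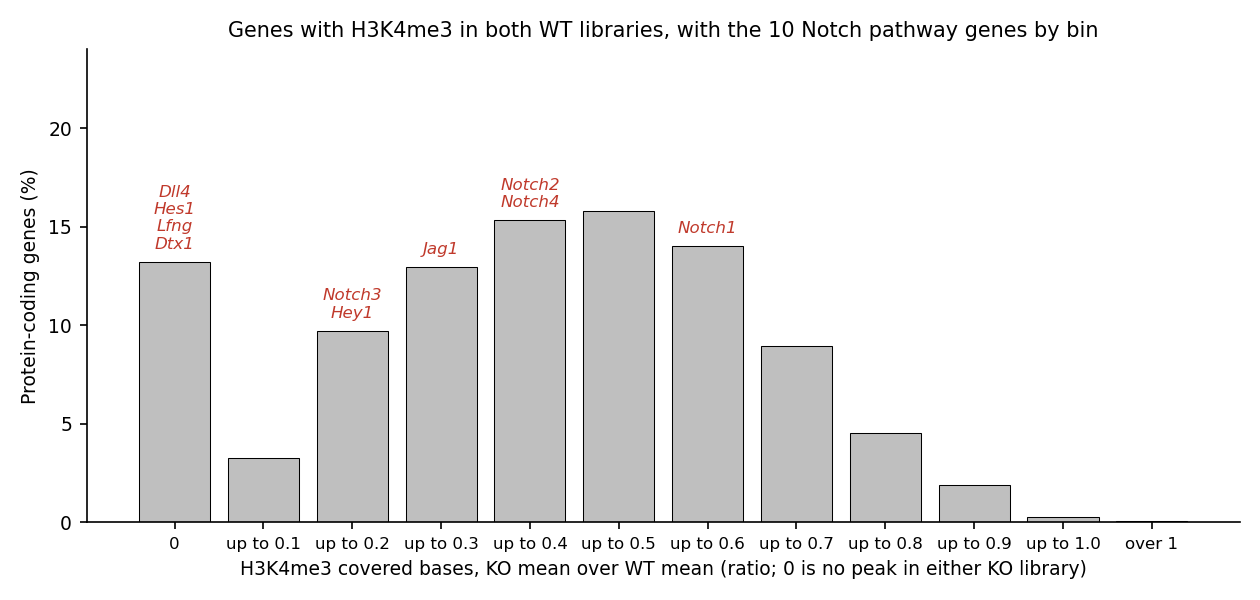
Share of protein-coding genes with H3K4me3 in both WT libraries (%, vertical axis) by the ratio of mean KO to mean WT covered bases (horizontal axis, bins of 0.1 with 0 apart), with the names of the 10 Notch pathway genes above their bins. The names of 4 genes stand at 0, where 13.2% of all 12644 genes lie, and Notch1 stands farthest to the right, at 0.542.

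Another 39 genes of the pathway were counted for comparison. H3K4me3 was present at 32 of them in at least 1 library, and all 32 had lower coverage in both KO libraries, which is close to the 93.5% of all genes. Of these, 27 had a peak in all 4 libraries and 0 were peaked in WT alone, against backgrounds of 68.1% and 12.6%. Adam17, a protease that can release the receptor's outer part, had 1378 and 1333 bp in KO and 2121 and 1560 bp in WT. Rbpj, the DNA-binding partner of the Notch intracellular domain, had 656 and 0 bp in KO and 3650 and 2759 bp in WT, and was with Maml1, Neurl1a, Hey2 and Nrarp one of 5 genes missing a peak in a single KO library. Maml3, a Mastermind coactivator, had 661 and 1243 bp in KO and 6590 and 5679 bp in WT. Dtx3, a relative of Dtx1, had 2166 and 2125 bp in KO and 2854 and 2577 bp in WT. The genes with no H3K4me3 peak in any library were Dll3, Jag2, Dlk1, Mfng, Hes2, Hes5 and Heyl. H3K4me1 was present over 28 of the 39 genes, with lower coverage in both KO libraries at 10 of the 28 (background 26.0%) and higher at 3 (12.4%). It was called in WT alone at Snw1 (background 4.69%) and in KO alone at Maml1 and Hes6 (2.75%).

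H3K4me1 sums over the 10 genes lay closer between the genotypes than those of H3K4me3, though the difference between the marks was not tested. Over each gene plus 1 kb, peaks numbered 16 and 14 in KO and 18 and 14 in WT, a log2 ratio of −0.08, against −0.11 for all genes. The bases covered were 11399 and 10618 bp in KO and 10182 and 9379 bp in WT, with means of 11008.5 ± 552 bp in KO and 9780.5 ± 568 bp in WT (SD, n = 2 each) and a log2 ratio of 0.17, against −0.18 for all genes. A peak was present at 7 of the 10 genes: Notch1, Notch2, Jag1, Dll4 and Lfng in all 4 libraries, against 51.8% of the 12781 genes with any H3K4me1 peak, Hey1 in a library of each genotype and Notch3 in WT replicate 2 alone. Notch4, Hes1 and Dtx1 had none. No gene was peaked in WT alone (background 4.69%) or in KO alone (2.75%).

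Coverage by H3K4me1 was higher in both KO libraries at 3 of the 7 genes with a peak (Notch1, Jag1 and Lfng), against a background of 12.4%, and lower in both at 0, against 26.0%. Notch1 had 2245 and 2127 bp in KO and 2125 and 1787 bp in WT, so its groups were separated by 2 bp only. Jag1 had 1031 and 933 bp in KO and 681 and 866 bp in WT, and Lfng 904 and 704 bp in KO and 640 and 649 bp in WT. The exact permutation p was 0.333 for each, and the largest of these 3 mean differences was 230.0 bp. Notch2 was the gene with the most H3K4me1, with 8 and 8 peaks in KO and 11 and 9 in WT; it was the only one of the 10 with fewer peaks in both KO libraries, against a background of 13.0%, while its covered bases overlapped, at 5960 and 6304 bp in KO and 6032 and 5164 bp in WT.

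Dll4 was the only one of the 8 genes with a listed start that carried H3K4me1 within 1 kb of it. The peak covered 963 and 550 bp in KO and 366 and 617 bp in WT, and it was present in all 4 libraries, so the groups overlapped. It reached 250 and 250 of the Dll4 bases printed above in KO and 250 and 63 in WT. Within 1 kb of the Dll4 start there were thus H3K4me1 peaks in both genotypes and H3K4me3 peaks in WT alone. In WT replicate 2 the peaks of neither mark covered the start itself. The H3K4me3 peaks ranked low in the WT lists, and none was left with lists of equal length. At Lfng a peak inside the gene, between 3.13 and 4.159 kb, was likewise present in all 4 libraries, with a −log10 q of 9.60 and 5.79 in KO and 7.48 and 8.72 in WT. At Notch1 the peak between 8.739 and 10.525 kb inside the gene had 8.24 and 10.8 in KO and 13.5 and 7.18 in WT.

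Within 50 kb of the 10 genes, H3K4me1 peaks numbered 54 and 50 in KO and 60 and 49 in WT, averaging 52 ± 2.83 in KO and 54.5 ± 7.78 in WT (SD, n = 2 each). Fewer peaks in both KO libraries were found at Notch3, with 3 and 4 in KO and 5 and 5 in WT, and at Dll4, with 3 and 3 in KO and 5 and 4 in WT, against a background of 19.5%. More peaks in both KO libraries were found at Dtx1 alone, with 2 and 1 in KO and 0 and 0 in WT, against a background of 8.51%. The exact permutation p was 0.333 at each of these 3 genes, and at the other 7 the groups overlapped or touched. Dtx1 was also the only gene of the 10 with H3K4me1 there in both KO libraries and neither WT library, a state found at 1.11% of all genes with a peak in that window, and 0 of the 10 were in the opposite state, found at 2.02%. By covered bases in the same window, Dll4 alone was lower in both KO libraries, against a background of 34.3%, and Dtx1 alone higher, against 12.1%. All 4 libraries had a peak there at 7 of the 10 genes, against 83.4%. At Notch1 there were 8 and 11 peaks in KO and 12 and 7 in WT, and at Jag1 5 and 6 in KO and 8 and 5 in WT. Hes1 had 10 and 7 in KO and 5 and 8 in WT. Chromosome 16, on which Hes1 lies, held 3.56 ± 0.0172% of the H3K4me1 peaks in KO and 3.08 ± 0.0680% in WT (SD, n = 2 each), 1.16 times as much; its part in the Hes1 counts was not tested.

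**Figure D4:**
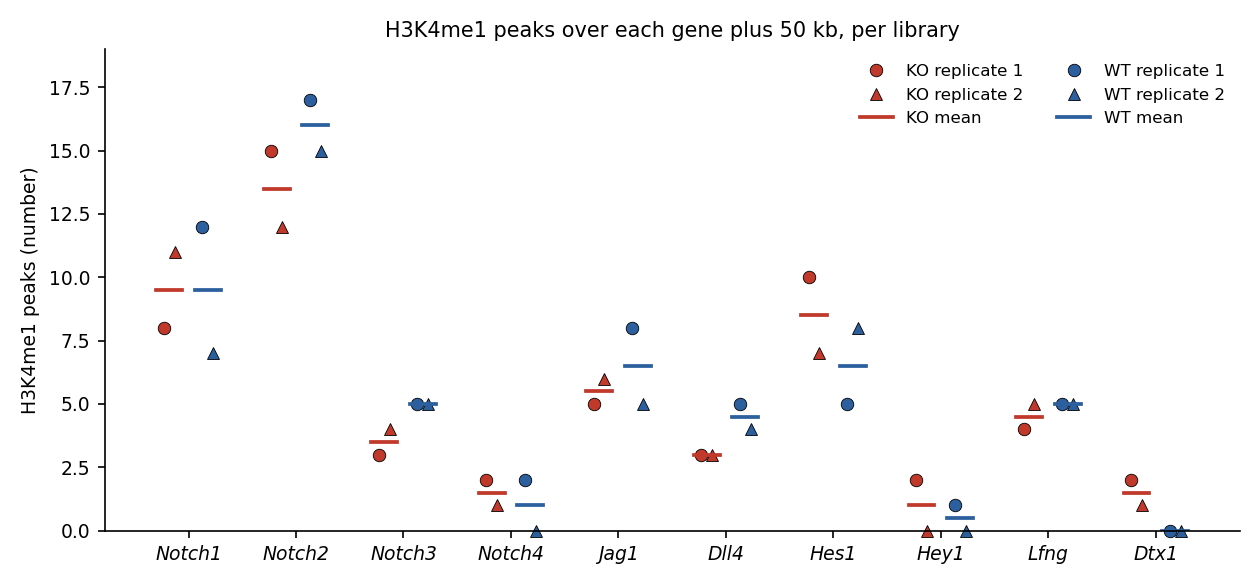
Number of H3K4me1 peaks over each gene plus 50 kb (vertical axis) for the 10 Notch pathway genes (horizontal axis), with a point for each library and a line for the mean of 2 KO (red) or 2 WT (blue) libraries. Red and blue points are interleaved or equal at 7 genes, lie apart with KO below at Notch3 and Dll4, and lie apart with KO above at Dtx1.

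These windows also hold other protein-coding genes, 9 at Notch4, 4 each at Dll4 and Dtx1, 3 at Lfng, 2 each at Notch1, Notch2 and Notch3, 1 each at Jag1 and Hey1 and 0 at Hes1, so a peak near a Notch gene is not thereby tied to it. Merged across the libraries, the peaks formed 82 regions. All 4 libraries held 26 of them, or 31.7%, against 28.7% of the 94400 regions of the genome. The WT libraries alone held 1 region, 1.22% against 6.63%, and the KO libraries alone held 5, 6.10% against 5.37%. Hence the shares held in common and in KO alone were near the background.

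The region held in WT alone lay upstream of Notch1, from −28.587 to −28.135 kb, with a −log10 q of 4.40 and 5.76. Close to it, from −31.136 to −30.615 kb, was a region held in KO alone, at 3.34 and 6.48. A second KO region lay inside Jag1, from 2.296 to 2.692 kb, at 4.70 and 5.12. It overlaps the end of the H3K4me3 peak of WT replicate 1, which reached 2.493 kb, and lies beyond that of WT replicate 2, which reached 2.109 kb. Hes1 had 2 such regions, from −3.074 to −2.509 kb at 2.44 and 3.0 and from 30.592 to 31.728 kb at 6.57 and 7.09. The last lay upstream of Dtx1, from −38.693 to −37.911 kb, at 6.73 and 5.46.

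Regions held by all 4 libraries were most numerous at Notch2, with 8, of which 5 were inside the gene, followed by Notch1 with 5, Hes1 with 4, Notch3 and Lfng with 3 each, Jag1 with 2 and Dll4 with 1. At Notch1 an upstream region from −22.563 to −21.087 kb had a −log10 q of 12.9 and 16.6 in KO and 12.6 and 12.1 in WT. At Jag1 an upstream region from −20.054 to −19.081 kb had 9.35 and 12.1 in KO and 7.43 and 6.08 in WT. At Hes1 the common region nearest the gene ran from −6.132 to −4.834 kb, with 6.73 and 4.35 in KO and 5.38 and 3.95 in WT. Notch4, Hey1 and Dtx1 had no region common to all 4 libraries.

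**Figure D5:**
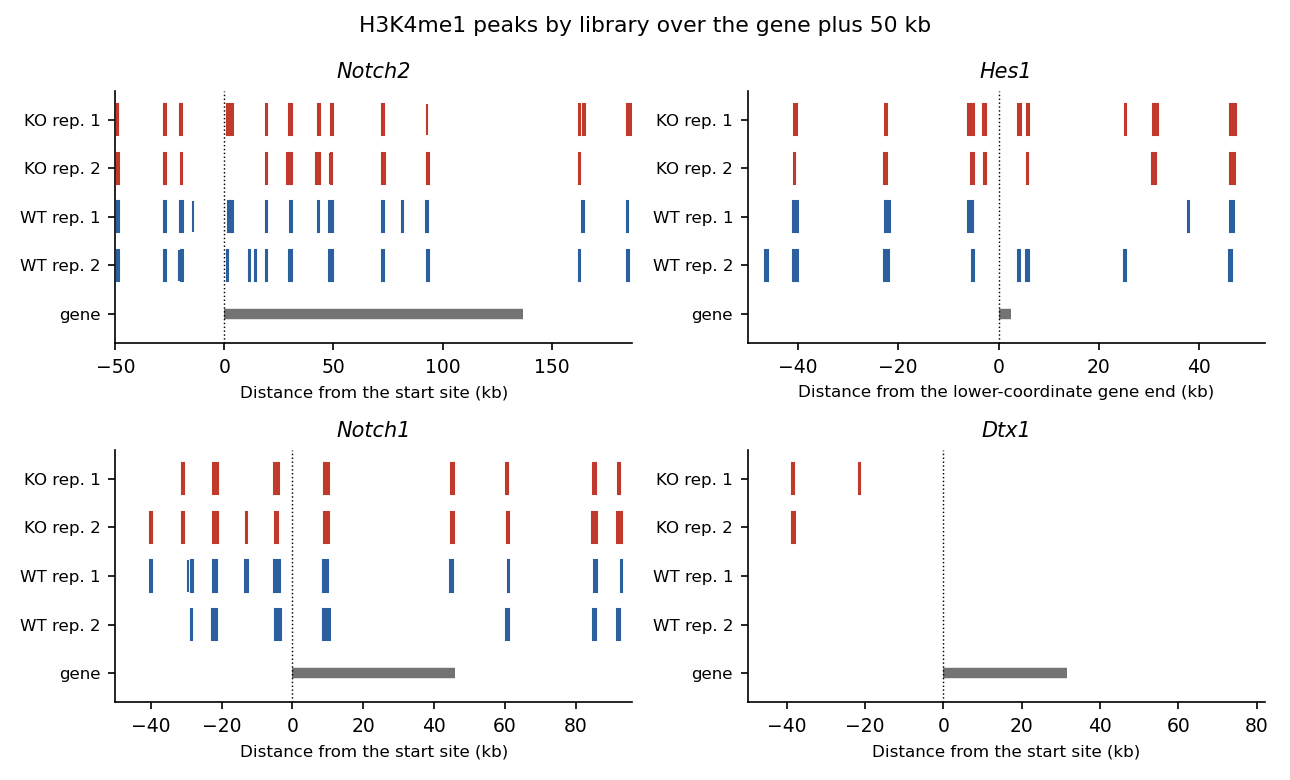
Position of every H3K4me1 peak over 4 of the genes plus 50 kb, in kb from the start site, or from the lower-coordinate gene end for Hes1 (horizontal axis, dotted line at 0), with KO libraries (red) above WT libraries (blue) and the gene in grey. The 5 common regions of Notch1, the 8 of Notch2 and the 4 of Hes1 line up across all 4 libraries, and Dtx1 has peaks in the KO libraries alone.

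MLL4 gave no peak over any of the 10 genes plus 1 kb in any library. Within 50 kb there was a single one, near Notch1 in WT replicate 2, from 57.977 to 58.208 kb after the Notch1 start and so beyond the 3′ end of the gene, with a −log10 q of 9.88 and a fold enrichment of 8.84. With at most 69 MLL4 peaks in a library, the lists do not show how much MLL4 was bound at these genes.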

How the data were processed

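Cut & Run libraries (3 antibodies, 2 genotypes, 2 libraries each) were grouped by their sample titles. Per the file headers, peaks of each library were called separately in paired-end mode with MACS 2.1.0.20150731 by the authors, who set the q cutoff to 0.01, the extension to 147 bp, the local background to 10000 bp and duplicate removal to automatic, and used no control library. At most 1 fragment per position was kept, per the file headers, except for 2 in all H3K4me1 libraries and in H3K4me3 WT replicate 1. The submitters' processing notes name mm10 as the build, and HOMER 4.10, deepTools, MACS2, bedtools, SAMtools 1.5 and Bowtie2 as tools. The deposited lists hold, for every peak, its position, length, pileup signal, −log10 of p and of q, and the fold enrichment ratio against local background. These are the authors' values for the peak, and serve here to describe, filter or rank peaks inside their own list. Where no peak was listed, the site failed the cutoff in that library and the mark may still be present, since deeper or more enriched libraries pass weaker sites.

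Filtered fragments, per the file headers, numbered 5519477 to 11319701 for H3K4me3, 11604131 to 13627038 for H3K4me1 and 4435103 to 5838305 for MLL4. Peaks on chromosomes 1 to 19 and X were placed on RefSeq genes (GRCm38.p6, the coordinates of mm10) with Python 3.11.15, numpy 2.4.6 and pandas 2.3.3, counting a peak that shared at least 1 bp with the window. The table does not give exons, so exon and intron are not told apart. Covered bases are the bases of a window under peaks. Peaks of the 4 lists that shared at least 1 bp were merged into regions. Each value was compared between genotypes with an exact two-sided permutation test over the 6 assignments of the libraries. Background shares count all genes that had the mark in any library. The counting of peaks over genes was checked on the H3K4me3 list of WT replicate 2, against a copy without the peaks over randomly chosen genes. The removal fixed the outcome in advance, so that check covers only the overlap of peaks with windows. It did not run the rule for peaks in WT alone over the 4 lists. Nor does it cover differences in depth or enrichment between libraries. The genes named are the 10 members and a list of 39 other pathway genes; they, the marker lists and the windows were chosen with earlier results of these data known. Alternatives were other q cutoffs, lists of equal length, other windows and overlaps, shares of all genes, the replicate number as a block, and leaving out each library.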

Additional observations from a re-analysis of the deposited data

How the results depend on the processing

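Of 89 alternative values, 73 kept the direction or stayed within 1.5 times the count or within the spread between libraries, and 16 did not. The count of genes with lower H3K4me3 coverage in both KO libraries was 10, against 93.5% of all genes with a peak. Percentages in brackets below give the same share for the other counts. At a −log10 q of at least 10 the count was 6 of the 8 genes with a peak left (89.6%). With lists of equal length it was 5 of 6 (83.9%). As a share of all genes it was 6 of 10 (29.6%), 4 of them with no KO peak. The count with H3K4me3 in WT alone was 4 (12.6%), and 0 of 6 with lists of equal length (3.46%). With those lists the summed log2 ratio (−2.14) was −1.49. At a −log10 q of at least 10 that ratio was not computed, as KO replicate 2 had no peak left at the 10 genes. The count with fewer H3K4me1 peaks within 50 kb was 2 (19.5%). It was 0 at a −log10 q of at least 5 (19.2%) and 1 with lists of equal length (16.4%). By covered bases it was 1 (34.3%), and within 100 kb it was 0 (23.6%). The count with more was 1 (8.51%), and it was 0 within 20 kb (8.01%) and 2 within 100 kb (9.35%). The count with higher H3K4me1 coverage over the gene plus 1 kb was 3 (12.4%), and 5 as a share of all genes (17.9%). Its alternatives were chosen after seeing the data. Leaving out each library in turn gave 10 to 10 genes with lower H3K4me3 (94.2% to 99.6%) and 4 to 5 with H3K4me3 in WT alone (13.6% to 21.9%). The summed log2 ratios were −2.37 to −1.90 (H3K4me3), −0.27 to 0.10 (H3K4me1 peaks over the gene plus 1 kb) and −0.21 to 0.08 (within 50 kb). Fewer H3K4me1 peaks were found at 2 to 5 genes (27.1% to 38.6%), the 5 without WT replicate 2 (38.6%). More were found at 1 to 3 genes (14.1% to 22.6%). These were 3 without KO replicate 2 (22.6%) or WT replicate 1 (20.5%) and 2 without WT replicate 2 (14.1%). Higher H3K4me1 coverage was found at 4 to 4 genes (18.4% to 32.1%). The shares over all genes also rose whenever a library was left out. The causes were not tested. Replicate numbers were not treated as pairs in the main comparison. Across genes, the difference between replicates 1 and 2 in KO and in WT had a Pearson r of 0.0319 over 9041 genes for H3K4me3 and 0.00192 over 15364 genes for H3K4me1. Such correlations cannot show whether libraries of the same number were prepared together, because a shared preparation need not shift the same genes. With the replicate number as a block, lower H3K4me3 was found at 10 genes (94.1%), fewer H3K4me1 peaks within 50 kb at 3 (26.7%) and more at 1 (12.3%). H3K4me3 in WT alone was found at 4 and higher H3K4me1 coverage at 3, for which no share over all genes was computed. The summed log2 ratios with the block were −2.14, −0.08 and −0.06. With 2 libraries a group no comparison can pass 0.05, and the lower number and length of H3K4me3 peaks in KO limits what can be read from a peak missing there.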
